A study of Homo sapiens with 10 samples.

Results

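The genes described are 8 that are known from islet cells other than the insulin-producing beta cell: GCG, SST, PPY, GHRL, TTR, CRYBA2, IRX2 and GC. They were taken by name, matched by Ensembl identifier, and are 8 of the 26346 genes in the deposited files. RNA with a polyA tail was sequenced from EndoC-βH1 cells, a clonal line of human insulin-producing cells made from fetal pancreas. The control group was 5 libraries of cells that received a control siRNA, and the other group was 5 libraries of cells given an siRNA to SRp55, a serine/arginine-rich splicing factor whose gene is SRSF6. All 10 came from the same line and from no primary islet, and the design text names a single siRNA (siSR#2). The title of each of the 10 libraries also carries the word exposed, and the labels do not say to what. Libraries with the same replicate number are called a pair below.

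A pancreatic islet holds several endocrine cell types, each named for its hormone. Alpha cells release glucagon, which raises blood glucose and is cut from the product of GCG; delta cells release somatostatin, the product of SST, which restrains the release of the other hormones; PP cells release pancreatic polypeptide from PPY; epsilon cells release ghrelin from GHRL. The other 4 genes are no hormones. TTR encodes transthyretin, a carrier of thyroid hormone and, with retinol-binding protein, of retinol; GC encodes the vitamin D-binding protein; IRX2 encodes a homeodomain transcription factor of the Iroquois family; CRYBA2 encodes a beta crystallin, a protein family best known from the eye lens. Transcripts of these 4 are enriched in human alpha cells. The libraries are of a whole culture, with no sorting by cell type named in the labels, and in bulk RNA fewer cells of a type and less RNA per cell cannot be told apart.

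The promoters of CRYBA2, SST and GCG are shown because CRYBA2 was the member gene that passed the test, SST the most abundant of the 4 hormone genes, and GCG the alpha cell hormone with only a trace of RNA. Each line gives the 250 bases before the RefSeq start on the minus strand of GRCh38.p14, at chr2:218993423-218993672 for CRYBA2, chr3:187670395-187670644 for SST and chr2:162152248-162152497 for GCG. Capitals mark 3 short motifs, each searched on both strands. TATAAA is a core element of promoters read by the basal machinery. TGACGTCA is the cAMP response element. TAAT is the core that many homeodomain proteins bind.
CRYBA2: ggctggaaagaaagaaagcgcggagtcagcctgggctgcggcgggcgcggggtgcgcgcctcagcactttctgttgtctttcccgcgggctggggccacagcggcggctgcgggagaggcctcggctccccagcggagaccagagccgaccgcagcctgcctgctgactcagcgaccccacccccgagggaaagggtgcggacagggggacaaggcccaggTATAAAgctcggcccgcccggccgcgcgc
SST: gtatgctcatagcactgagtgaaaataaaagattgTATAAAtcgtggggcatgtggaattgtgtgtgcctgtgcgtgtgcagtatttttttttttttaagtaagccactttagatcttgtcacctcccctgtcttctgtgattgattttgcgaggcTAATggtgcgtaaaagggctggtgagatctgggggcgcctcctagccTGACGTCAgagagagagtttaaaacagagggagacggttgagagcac
GCG: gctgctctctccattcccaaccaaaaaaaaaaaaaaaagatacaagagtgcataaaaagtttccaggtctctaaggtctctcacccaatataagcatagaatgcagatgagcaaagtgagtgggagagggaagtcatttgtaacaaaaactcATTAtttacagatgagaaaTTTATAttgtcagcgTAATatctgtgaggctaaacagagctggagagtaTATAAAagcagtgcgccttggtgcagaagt

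The CRYBA2 window held TATAAA 29 to 24 bases before the start and no match to the other motifs. In the SST window TGACGTCA lay 47 to 40 bases before the start, TAAT 94 to 91 and TATAAA 215 to 210. The GCG window held TATAAA 30 to 25 bases before the start and again on the other strand 79 to 74 bases before it. Its TAAT matches lay 64 to 61 bases before the start and, on the other strand, 98 to 95. These are matches of letters, not measured sites of binding. Of all 35116 promoter windows of this length, 10.7% held TATAAA, 1.65% TGACGTCA and 47.4% TAAT. The RefSeq table had entries for 6 of the 8 genes. PPY held TATAAA 31 to 26 bases before the start of its first entry, and GHRL and IRX2 held none of the motifs. CRYBA2 had 72% G or C in its window and GCG 38.4%, against a mean of 57.2% over all windows. TTR and GC have no entry in that table.

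Reads assigned to transcripts numbered 61.9 to 189.8 M per library (M, 10 to the power 6). The siRNA target SRSF6 was at 98.2 ± 3.24 RPKM with the control siRNA and at 24.9 ± 3.78 RPKM with the SRp55 siRNA (SD, n = 5), where RPKM is reads per kilobase of transcript and per M reads. The beta cell hormone gene INS ranked first or second in every library, with control values of 5839, 5296, 4237, 12705 and 4909 RPKM (replicates 1 to 5) and SRp55 siRNA values of 9380, 10519, 8440, 11334 and 7930 RPKM. INS overlapped between the groups and was not called (adjusted p = 0.202 in limma's test), but without control replicate 4 it was (0.0095). Genes were tested where their mean reached 0.5 RPKM, and a gene was called at a limma adjusted p under 0.05 over all 13630 genes tested. By that rule 684 genes were called, 5.02% of those tested, with 3.76% higher and 1.25% lower after SRp55 siRNA. That balance depended on the scaling: 513 genes were higher and 171 lower as deposited, against 433 and 500 with median-of-ratios scaling and 995 and 1345 on estimated reads per M. Of the 8 genes, SST, TTR, CRYBA2, IRX2 and GC reached the minimum. CRYBA2 was the 1 called, and it rose. GCG, PPY and GHRL lay under the minimum. With the replicate number as a block, which called 13.1% of tested genes, CRYBA2 and IRX2 were called. With the block and another choice together, alternatives chosen after seeing the data, 4 were called on estimated reads (36.3% of genes), 4 with median-of-ratios scaling (11.5%) and 2 without the minimum (6.95%). The block called 1280 genes higher and 504 lower on RPKM, against 772 and 794 with median-of-ratios scaling and 2159 and 2794 on estimated reads.

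Over all libraries the order of mean RPKM, a scale that accounts for length, was TTR, CRYBA2, GC, SST, IRX2, GHRL, GCG and PPY. TTR was above the other 7 in every library, and IRX2 lay below TTR, GC, CRYBA2 and SST and above the remaining 3 in every library. In control libraries GC, CRYBA2 and SST overlapped in range and their order is not settled. In SRp55 siRNA libraries CRYBA2, from 270 RPKM upward, lay above the highest GC value of 239 RPKM. GHRL lay above GCG in every control library, while their ranges overlapped after SRp55 siRNA.

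**Figure D1:**
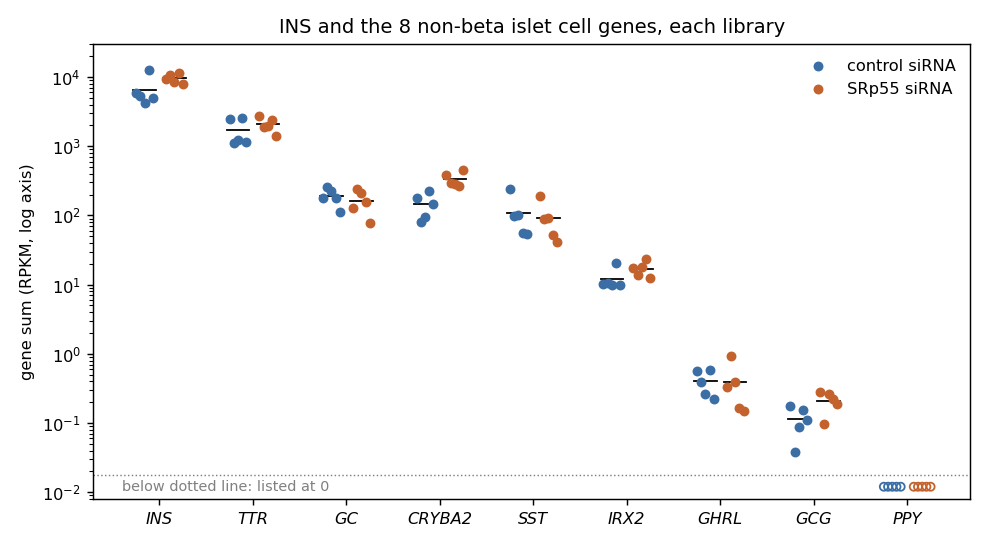
Gene sum in RPKM on a log axis for INS and the 8 genes, with 1 point per library, blue for control siRNA and orange for SRp55 siRNA, and a bar at each mean. TTR is the highest of the 8 at 1119 to 2761 RPKM, CRYBA2 is the gene whose groups do not overlap among those tested, and PPY is listed at 0 in all 10 libraries.

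Among the hormone genes, SST stood far above the rest. SST (ENSG00000157005.3, chromosome 3, 187386694 to 187388187, minus strand, GRCh37) is listed with a single transcript of 618 bases. It was at 240, 97.3, 103, 55.3 and 53.2 RPKM in control libraries 1 to 5 and at 189, 88.1, 90.7, 51.4 and 41.6 RPKM in SRp55 siRNA libraries 1 to 5. The 5 replicates fell into the same order in both groups, with replicate 1 the highest and replicate 5 the lowest, and the groups overlapped. SST ranged 5.78-fold over the 10 libraries, from 3912 to 17468 reads, so its spread is far wider than counting error. The control mean was 109.8 ± 76.5 RPKM and the SRp55 siRNA mean 92.2 ± 58.4 RPKM (SD, n = 5).

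The SRp55 siRNA library was lower than its control in 5 of 5 pairs for SST, at 0.782 to 0.929 of the control value. Across tested genes 9.38% were lower in all 5 pairs. The log2 fold change of SST was -0.33 relative to the median tested gene (SE 0.47, 95% interval -1.36 to 0.70), with an adjusted p of 0.820 in limma and p = 0.667 in the exact permutation test. That interval carries the spread between replicate numbers. With the replicate number as a block the SE was 0.07 and the interval -0.50 to -0.16, which is not adjusted for the number of genes. The limma adjusted p of 0.0844 did not pass. It belongs to the change before the median gene is subtracted, -0.225, so interval and p describe different estimates. Of alternatives chosen after seeing the data, the block gave an adjusted p of 0.0465 with median-of-ratios scaling (11.5% of genes called). It gave 0.0087 on estimated reads per M (36.3%) and 0.102 without the low-value minimum (6.95%). The share of the variation of SST held by the replicate number was 97.5%, against 2.09% held by the siRNA group, and 99.7% of tested genes had a lower share by replicate number. Replicate number has more levels than siRNA group, which alone tends to raise its share. The 97.5% is thus to be read against 55.3% for the median tested gene.

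GCG was near the limit of what these libraries resolve. GCG (ENSG00000115263.10, chromosome 2, 162999392 to 163008914, minus strand) was at 0.177, 0.0380, 0.0866, 0.154 and 0.110 RPKM in control libraries 1 to 5. After SRp55 siRNA it was at 0.281, 0.0983, 0.262, 0.225 and 0.186 RPKM. Each SRp55 siRNA library was higher than its own control, as were 22.8% of tested genes, but the groups overlapped. Behind these values stood 2.0 to 21.7 reads per control library and 13.6 to 44.05 per SRp55 siRNA library. Reads are counted per mate, so 2 reads are 1 read pair, and control library 2 held 1 pair. That pair was assigned to ENST00000492913.1, annotated as a retained intron. This transcript held 36.6% ± 46.0 of the GCG RPKM in control and 16.1% ± 24.8 in SRp55 siRNA libraries (SD, n = 5).

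The GCG means were 0.113 ± 0.0551 RPKM (control) and 0.210 ± 0.0725 RPKM (SRp55 siRNA; SD, n = 5), and the ratio within pairs ran from 1.47 to 3.02. Exact two-sided permutation gave p = 0.0556. Its smallest possible p is 0.00794. In the fit without the low-value minimum the limma adjusted p was 0.216, and 0.0442 with the replicate block added to it, an alternative chosen after seeing the data. The test as designed leaves GCG out and gives no call for it. At its highest, GCG was at 0.281 RPKM in a library where INS was at 9380 RPKM.

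PPY (ENSG00000108849.3, chromosome 17, 42018172 to 42019836, minus strand) was listed at 0 reads in all 10 libraries, as were 5661 of the 26346 genes (21.5%). The 13 mitochondrial genes, which every cell uses, are also listed at 0 throughout, so a listing at 0 need not be a count of 0. Were it one, 3 read pairs on its 460-base transcript would allow 0.0621 to 0.164 RPKM, depending on the library and covering counting error only. GHRL (ENSG00000157017.11, chromosome 3, 10327359 to 10334631, minus strand) was at 0.567, 0.387, 0.258, 0.578 and 0.225 RPKM in control and 0.333, 0.943, 0.394, 0.164 and 0.149 RPKM in SRp55 siRNA libraries 1 to 5. It was higher in 2 pairs and lower in 3, on 21.8 to 68.2 reads per library. The groups overlapped throughout, with means of 0.403 ± 0.166 and 0.397 ± 0.323 RPKM (SD, n = 5) and p = 0.833 in the exact permutation test. GENCODE 44 places GHRLOS, LINC00852, the protein-coding gene ENSG00000272410 and the small RNA gene ENSG00000276678 on the opposite strand over GHRL. None of these is among the genes of the files, and any use of strand in counting is not given in the sources used here. Reads of these RNAs thus cannot be told apart from GHRL.

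Set against insulin, the non-insulin hormone genes made up a small share of hormone RNA. GCG, SST, PPY and GHRL together held 3.96, 1.81, 2.38, 0.439 and 1.08% of the RPKM sum of these 4 genes and INS in control libraries 1 to 5. After SRp55 siRNA the share was 1.98, 0.840, 1.07, 0.455 and 0.526%. It was lower in 4 of 5 pairs, with replicate 4 the exception, and the groups overlapped. The means were 1.93 ± 1.35% and 0.9749 ± 0.615% (SD, n = 5), a difference of -0.960 percentage points, with p = 0.206 in the exact two-sided permutation test. The paired sign permutation gave p = 0.125, where its smallest possible value is 0.0625. SST made up 98.7 to 99.7% of the sum of the 4 genes, so the share is in effect that of SST against INS. Within pairs 1 to 5 INS was at 1.61, 1.99, 1.99, 0.892 and 1.62 of its control value. SST was at 0.787, 0.905, 0.880, 0.929 and 0.782. The lower share thus holds higher INS as well as lower SST, and in replicate 4 both genes were lower.

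TTR was the most abundant of the 8 genes by a wide margin. TTR (ENSG00000118271.5, chromosome 18, 29171689 to 29178974, plus strand) was at 2504, 1119, 1215, 2524 and 1139 RPKM in control libraries 1 to 5 and at 2761, 1922, 1928, 2393 and 1425 RPKM after SRp55 siRNA. Replicates 1 and 4 were high in both groups and replicate 5 was low in both. TTR ranked between 6 and 11 among all genes of a library and stood at 17.97 to 42.9% of the INS value. Its coding transcript ENST00000237014.3 held nearly all of it, at 1700 ± 743 RPKM (control) and 2085 ± 510 RPKM (SRp55 siRNA; SD, n = 5).

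TTR was higher in 4 of 5 pairs, with ratios of 1.102, 1.72, 1.59, 0.948 and 1.25 for replicates 1 to 5. The groups overlapped. The log2 fold change was 0.26 (SE 0.29, 95% interval -0.38 to 0.89), with an adjusted p of 0.497 in limma and p = 0.325 in the exact permutation test. Replicate number held 75.1% of the variation of TTR and siRNA group 14.1%, against 55.3% and 14.8% for the median tested gene. The group share of TTR was thus close to that of the median gene.

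GC had the opposite direction within pairs. GC (ENSG00000145321.8, chromosome 4, 72607410 to 72669758, minus strand) was at 177, 254, 222, 177 and 111 RPKM in control libraries 1 to 5. After SRp55 siRNA it was at 129, 239, 207, 155 and 78.8 RPKM. Replicate 2 was the highest and replicate 5 the lowest of each group. The 5 pairs were all lower after SRp55 siRNA, at 0.707 to 0.942 of the control value, but the groups overlapped, with means of 188 ± 53.9 and 162 ± 63.5 RPKM (SD, n = 5).

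The log2 fold change of GC was -0.37 (SE 0.30, 95% interval -1.04 to 0.30), with an adjusted p of 0.654 in limma and p = 0.460 in the exact permutation test. The replicate block gave an interval of -0.60 to -0.15 and a limma adjusted p of 0.108. That p belongs to the change before the median gene is subtracted, -0.266, so interval and p describe different estimates. Of alternatives chosen after seeing the data, the block gave an adjusted p of 0.0477 with median-of-ratios scaling (11.5% of genes called). It gave 0.0110 on estimated reads per M (36.3%) and 0.141 without the low-value minimum (6.95%). Replicate number held 90.0% of the variation of GC, and 95.3% of tested genes had a lower share. For both SST and GC, the span over the 5 replicate numbers was wider than the step within any pair.

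**Figure D2:**
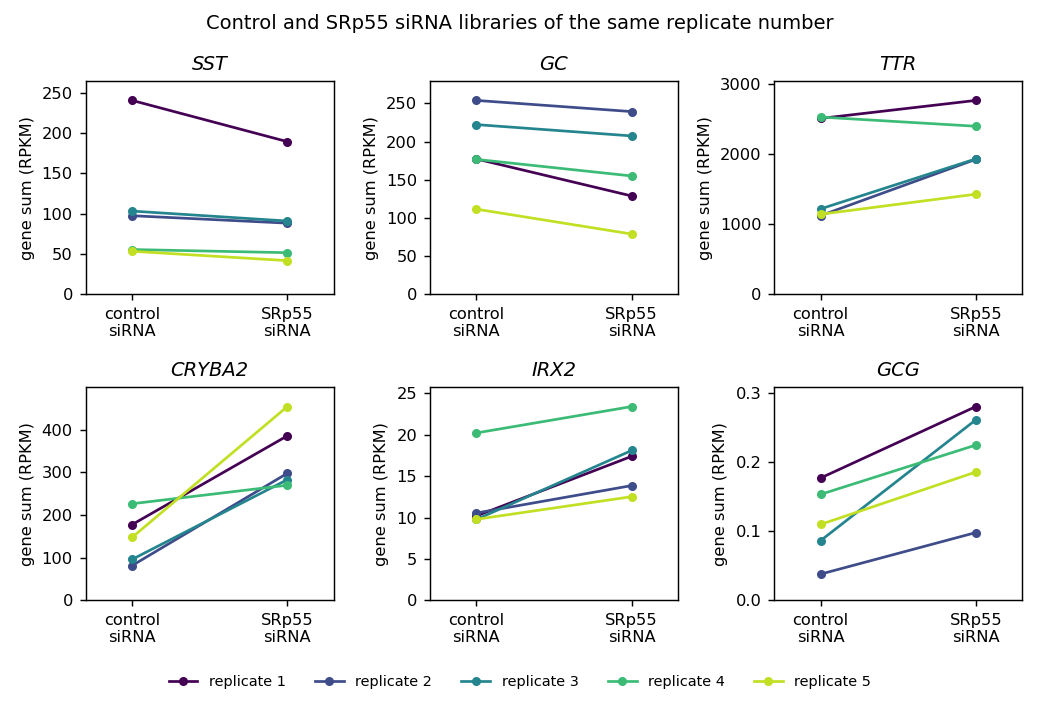
Gene sum in RPKM (linear axes from 0) for SST, GC, TTR, CRYBA2, IRX2 and GCG, with a line joining the control and SRp55 siRNA library of each replicate number. The lines of SST and GC all slope down by less than the span between replicates, with SST replicate 1 far above the rest, those of CRYBA2, IRX2 and GCG all slope up, and 1 of the 5 TTR lines slopes down.

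GC is listed with 8 transcripts, and 4 entered the test of transcript usage, the percent of a gene's RPKM held by a transcript. The coding transcript ENST00000504199.1 was at 85.7 ± 25.8 RPKM (control) and 55.0 ± 24.4 RPKM (SRp55 siRNA), and its usage was 45.6% and 35.4%. The coding transcript ENST00000273951.8 had 14.5% and 21.9% of the gene. ENST00000509740.1, annotated for nonsense-mediated decay, held 23.0% and 21.0%. The usage test did not call GC (adjusted p = 0.916, limma's diffSplice), in a table where 34 of 9915 genes, 0.343%, were called.

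IRX2, the homeodomain gene, was at a moderate level. IRX2 (ENSG00000170561.8, chromosome 5, 2745959 to 2752969, minus strand) was at 10.2, 10.5, 9.77, 20.2 and 9.79 RPKM in control libraries 1 to 5 and at 17.4, 13.9, 18.1, 23.4 and 12.5 RPKM after SRp55 siRNA. Every SRp55 siRNA library lay above 4 of the control libraries. Control replicate 4, at 20.2 RPKM, was above 4 of the 5 SRp55 siRNA libraries. The means were 12.1 ± 4.55 and 17.1 ± 4.25 RPKM (SD, n = 5).

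The gene sum of IRX2 was higher in 5 of 5 pairs, with ratios from 1.16 to 1.85, and 22.8% of tested genes were higher in all 5 pairs. The log2 fold change was 0.40 (SE 0.22, 95% interval -0.09 to 0.89). The adjusted p of 0.217 in limma, which belongs to the change before the median gene is subtracted, 0.505, did not pass. The exact permutation test gave p = 0.0714. The call depended on the setting: the adjusted p was 0.0427 with the replicate block, and 0.0343 without control replicate 4, where the log2 fold change was 0.54. The block called 9.39% of tested genes higher and 3.70% lower on RPKM as deposited, and the fit without that control library called 6.83% higher. Of alternatives chosen after seeing the data, the block gave a limma adjusted p of 0.0635 without the low-value minimum (6.95% of genes called). It gave 0.0486 with median-of-ratios scaling (11.5%) and 0.0308 on estimated reads per M (36.3%).

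Of the other Iroquois genes, IRX5 was at 0.940 ± 0.235 RPKM (control) and 1.36 ± 0.306 RPKM (SRp55 siRNA; SD, n = 5; adjusted p = 0.183 in limma). IRX1, a defining alpha cell factor in the marker list, was under the minimum at 0.175 and 0.257 RPKM, and IRX4 and IRX6 were listed at 0. IRX2-DT, a gene on the plus strand at 2752245 to 2755508 on chromosome 5, overlaps the first 725 bases of the annotated span of IRX2. It was at 5.94 ± 4.61 and 6.15 ± 2.20 RPKM (SD, n = 5). The overlap lies in the span of a single IRX2 transcript, ENST00000502957.1, whose usage was 31.6% ± 6.79 and 42.4% ± 3.61, while the coding transcript ENST00000382611.6 had 47.3% and 37.8%. IRX2 usage was not called (adjusted p = 0.882, diffSplice), and without known strand reads of IRX2 and IRX2-DT in the overlap cannot be told apart.

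CRYBA2 was the 1 gene of the 8 called by the test as designed, and it rose. CRYBA2 (ENSG00000163499.7, chromosome 2, 219854911 to 219858143, minus strand) was at 177, 81.4, 95.9, 226 and 148 RPKM in control libraries 1 to 5 and at 386, 298, 283, 270 and 454 RPKM after SRp55 siRNA. The lowest SRp55 siRNA library, replicate 4 at 270 RPKM, was above the highest control library, also replicate 4, at 226 RPKM. In 5.61% of tested genes the SRp55 siRNA group lay above the control group without overlap.

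The mean of CRYBA2 was 2.32-fold higher, and the ratio within pairs was 2.17, 3.66, 2.95, 1.19 and 3.08 for replicates 1 to 5. Replicate 4 was the pair with the smallest step, and its control library was also the highest control for INS and IRX2. The log2 fold change was 1.17 (SE 0.28, 95% interval 0.57 to 1.78; adjusted p = 0.0270 in limma), and the exact permutation test gave 0.00794, the smallest p it can give. The siRNA group held 68.3% of its variation and replicate number 18.3%, and 94.2% of tested genes had a lower share by group.

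The size of the CRYBA2 rise was steady when single libraries were left out, from 1.00 to 1.31 on the log2 scale, but the call sat close to the threshold. It was lost without control replicate 2 (adjusted p = 0.0608), 3 (0.0683) or 5 (0.0605) and without SRp55 siRNA replicate 1 (0.0590), 2 (0.0556) or 3 (0.0520), in the same limma fit. On estimated reads per M assigned, where 7.30% of genes were called higher, the adjusted p was 0.0049.

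**Figure D3:**
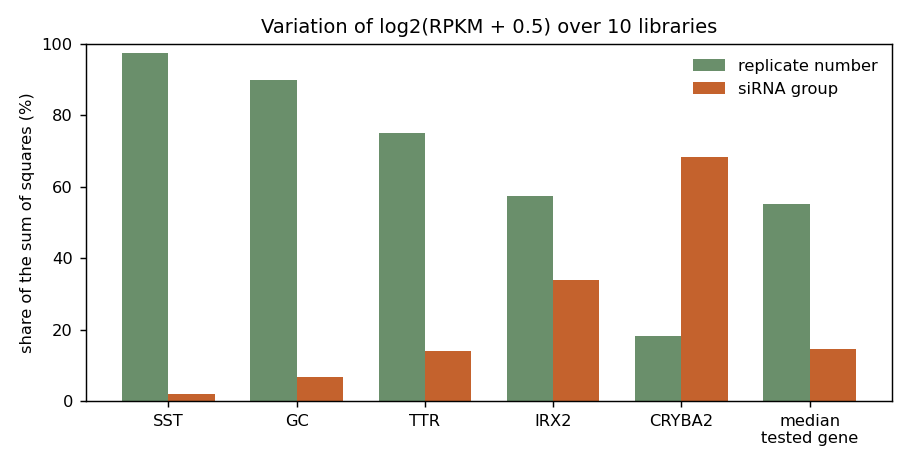
Share of the sum of squares of log2(RPKM + 0.5) over 10 libraries held by replicate number (green) and by siRNA group (orange), in percent, for the 5 genes tested and for the median tested gene. Replicate number held 97.5% for SST and 18.3% for CRYBA2, and siRNA group 2.09% and 68.3%. Replicate number has more levels than siRNA group, so each bar is to be read against that of the median tested gene.

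CRYBA2 is listed with 6 transcripts. The coding transcript ENST00000392096.2, of 708 bases, was at 121 ± 54.4 RPKM (control) and 271 ± 39.9 RPKM (SRp55 siRNA), and ENST00000295728.2, also coding and of 893 bases, at 21.0 ± 6.53 and 44.7 ± 12.7 RPKM (SD, n = 5). Their usage was 81.7% and 81.5% for the first and 15.4% and 13.3% for the second, so both coding transcripts were higher by a similar factor. The diffSplice test did not call the gene, with a largest shift of 2.15 percentage points. SRp55 siRNA replicate 5 stood apart: ENST00000487181.1, a transcript of 437 bases with no defined coding sequence, was at 81.1 RPKM there, 17.8% of the gene's RPKM. In the other libraries it was at most 3.02 RPKM. Without that library CRYBA2 was still called (adjusted p = 0.0458, limma).

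**Figure D4:**
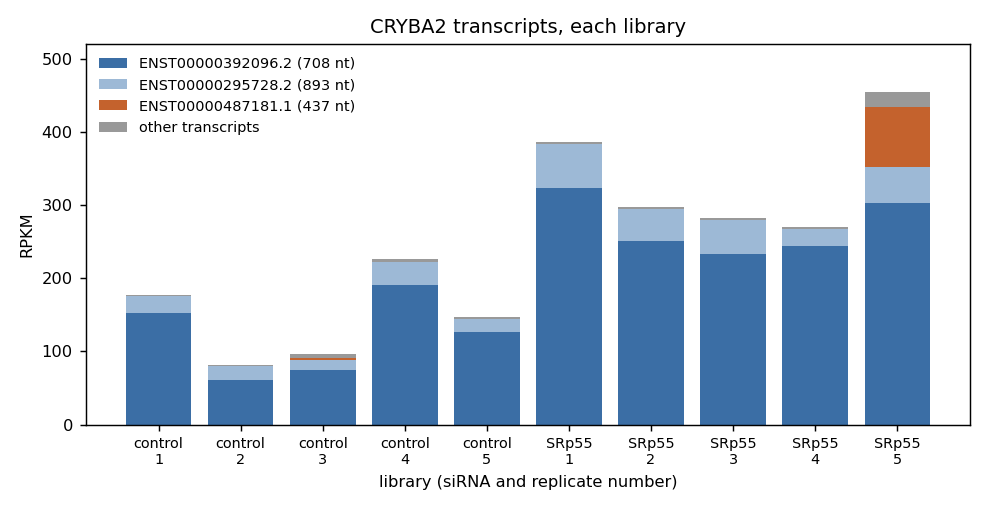
RPKM of the CRYBA2 transcripts stacked for each of the 10 libraries, from 0. ENST00000392096.2 (dark blue) makes up most of every bar, and ENST00000487181.1 (orange) can be seen mainly in SRp55 siRNA replicate 5, where it was at 81.1 RPKM.

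CRYBA2 was the abundant member of its family here. Of 13 crystallin genes 3 were tested and CRYBA2 was the 1 called, with a median log2 fold change of -0.14 over the 3. CRYGD was at 3.75 and 3.22 RPKM and CRYBB2 at 0.570 and 0.542 RPKM in control and SRp55 siRNA libraries, and 7 of the 13 had a mean under 0.1 RPKM.

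In the rest of the alpha cell list 1 gene was called. Of 20 other alpha cell genes 17 were tested, 1 rose and 0 fell in limma, with 4 higher and 2 lower at an unadjusted p under 0.05, where 2986 of all tested genes lay. The median log2 fold change of the list was 0.04, against 0 for all tested genes by construction. The 1 that rose was PTGER3, a prostaglandin E2 receptor, from 3.22 ± 0.715 to 6.15 ± 0.928 RPKM (SD, n = 5; log2 fold change 0.74, adjusted p = 0.0107 in limma). With the replicate block 4 of the 17 rose and 2 fell, where the block called 9.39% of all tested genes higher and 3.70% lower. Of the defining genes, LOXL4, a lysyl oxidase, was at 1.11 and 1.05 RPKM in control and SRp55 siRNA libraries.

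The summed RPKM of the 20 genes was 1111 to 1289 in control and 1367 to 1637 in SRp55 siRNA libraries, without overlap. Among single tested genes 5.61% were higher without overlap, a share that does not cover sums. The sum follows the most abundant genes and is of RPKM as deposited, where the median tested gene rose by 0.11 on the log2 scale. The most abundant of the 20 was ALDH1A1, an aldehyde dehydrogenase of retinoic acid synthesis, at 391 ± 49.2 and 554 ± 65.3 RPKM (SD, n = 5), which did not pass the limma test (adjusted p = 0.0587). The part of these genes in the CRYBA2 result was not tested.

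For the delta cell, 6 of 13 other genes were tested (median log2 fold change 0.08) and 0 were called in limma, with 1 at an unadjusted p under 0.05, while 1, RBP4, rose with the replicate block. RBP4, the retinol-binding protein that circulates with transthyretin, was at 32.01 ± 10.5 RPKM (control) and 43.5 ± 16.8 RPKM (SRp55 siRNA; SD, n = 5; adjusted p = 0.0368 with the block, limma). Of the defining genes, the transcription factor HHEX was at 1.06 and 1.81 RPKM and the leptin receptor gene LEPR at 2.36 and 2.32 RPKM. CASR, the calcium-sensing receptor, was the most abundant, at 65.8 and 74.8 RPKM, and was not called. The summed list was at 94.3 to 152 RPKM in control and 118 to 187 RPKM in SRp55 siRNA libraries.

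Of 12 other PP cell genes 9 were tested, with 1 higher, 1 lower and a median log2 fold change of 0.17, and 2 higher and 1 lower with the replicate block. Over all tested genes the block called 9.39% higher and 3.70% lower. SERTM1, a small membrane protein gene, rose from 0.982 ± 0.126 to 1.52 ± 0.229 RPKM (SD, n = 5; adjusted p = 0.0474, limma), a call that was lost with median-of-ratios scaling (0.0915) and without any one library except SRp55 siRNA replicate 5 (0.0562 to 0.119). AQP3, a channel for water and glycerol, fell by 1.52 on the log2 scale (adjusted p = 0.0068, limma). ETV1, a defining factor, was at 12.0 and 11.4 RPKM. Of 8 epsilon cell genes other than GHRL 4 were tested (median 0.18) and 0 were called in limma, with 1 at an unadjusted p under 0.05. ACSL1, a long-chain acyl-CoA synthetase, was the most abundant at 28.2 and 29.0 RPKM.

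The enzymes that turn these prohormones into hormones were present in all libraries. All 9 genes of the list were tested (median log2 fold change -0.05) and 0 were called in limma, with 0 at an unadjusted p under 0.05 and 1, PAM, higher under the replicate block. CPE, the carboxypeptidase that trims cleaved prohormones, was at 1295 ± 194 and 1154 ± 160 RPKM, and PCSK2, the convertase that frees glucagon and somatostatin among others, at 408 ± 56.7 and 361 ± 37.9 RPKM. PCSK1 was at 98.4 ± 6.49 and 110 ± 6.35 RPKM (SD, n = 5). MBOAT4, which acylates ghrelin, was at 9.98 ± 1.34 and 9.33 ± 0.937 RPKM (SD, n = 5), above GHRL itself in every library.

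Among the receptors for these hormones and their relatives, 7 of 12 genes were tested and 1 was called, with a median log2 fold change of -0.32. GLP1R, the receptor for glucagon-like peptide 1, which is also cut from the product of GCG, fell from 4.46 ± 0.780 to 2.62 ± 0.423 RPKM (SD, n = 5; log2 fold change -0.77, adjusted p = 0.0254 in limma). That call was lost without control replicate 1, 2 or 3 or SRp55 siRNA replicate 2, 3 or 4, with adjusted p of 0.0520 to 0.0633. The somatostatin receptors SSTR2 and SSTR1 were the most abundant, at 56.6 ± 8.69 and 54.9 ± 5.88 RPKM and at 33.1 ± 4.71 and 29.8 ± 3.98 RPKM (SD, n = 5). SSTR5 was at 5.04 ± 1.53 and 2.98 ± 3.24 RPKM and was not called. The glucagon receptor GCGR was at 0.254 and 0.265 RPKM, under the minimum, and the ghrelin receptor GHSR had reads in 1 library.

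Transcription factors that set endocrine cell fates were tested for 16 of 18 genes (median log2 fold change 0.13), of which 2 rose and 0 fell in limma, with 7 higher and 3 lower at an unadjusted p under 0.05. PAX4, which opposes the alpha cell fate, rose from 0.451 ± 0.0940 to 1.29 ± 0.140 RPKM (SD, n = 5; log2 fold change 0.80, adjusted p = 0.0024 in limma). NEUROG3, the factor of endocrine progenitors, rose from 3.22 ± 0.585 to 5.01 ± 0.609 RPKM (SD, n = 5; adjusted p = 0.0404). The NEUROG3 call was lost without the low-value minimum (0.0511) and without any one library except control replicate 4 and SRp55 siRNA replicate 5 (0.0566 to 0.0951). With the replicate block 5 of the 16 factors rose and 3 fell, where the block called 9.39% of all tested genes higher and 3.70% lower. Of all 13630 tested genes, 2986 had an unadjusted p under 0.05 without the block.

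Markers of cells outside the endocrine pancreas were read because TTR and GC are also major products of the liver. Of 14 hepatocyte genes 10 were tested (median log2 fold change -0.12) and 0 were called in limma, with 0 at an unadjusted p under 0.05. With the replicate block 1 was lower, APOB, an apolipoprotein, at 11.2 ± 2.84 and 8.08 ± 2.30 RPKM (SD, n = 5; adjusted p = 0.0248 with the block). Their summed RPKM was 430 to 893 in control and 392 to 769 in SRp55 siRNA libraries, mostly SERPINA1 at 510 ± 156 and 404 ± 105 RPKM and APOC3 at 158 ± 54.1 and 183 ± 45.4 RPKM (SD, n = 5). ALB, the defining liver gene, was at 0.558 and 0.967 RPKM. Of 14 acinar and duct genes 3 were tested with 0 called in limma and 0 at an unadjusted p under 0.05, a sum of 39.7 to 90.1 against 42.2 to 100.2 RPKM, and PRSS1, CTRB1, CELA3A, PNLIP and REG1A listed at 0. KRT19, a duct keratin, was highest at 23.7 ± 4.54 and 34.9 ± 14.5 RPKM. Of 15 mesenchymal, endothelial and immune genes 3 were tested, also with 0 called and 0 at an unadjusted p under 0.05, and the list summed to 34.9 to 52.0 RPKM in control and 32.1 to 53.3 RPKM in SRp55 siRNA libraries. In it, CDH5, KDR, CD3E and TYROBP were listed at 0. CD68, a lysosomal protein of macrophages, was highest at 41.4 ± 5.98 and 41.0 ± 9.56 RPKM (SD, n = 5). The part of these markers in the values of TTR and GC was not tested.

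The genes whose pattern over the 10 libraries lay closest to each tested member were found by the root mean square difference of standardized log2 values among 11431 genes, where 0 is an identical pattern. All share library and depth with the member, and no p is given. For TTR they were IFI6 (0.101), RPS19BP1 (0.122) and COX5A (0.179). For CRYBA2 they were BACE2 (0.232), SDF2L1 (0.236) and CALR (0.238), of which SDF2L1 and CALR encode proteins of the endoplasmic reticulum. For SST they were ANKS4B (0.323), PTPRT (0.324) and BAALC (0.330). For GC they were SEC24B (0.304), CDC40 (0.325) and LCOR (0.330). For IRX2 they were KDM1A (0.267), YWHAQ (0.286) and RDH14 (0.297). TTR thus had the closest matches and SST and GC the most distant.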

How the data were processed

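Polyadenylated RNA was measured in 5 control siRNA and 5 SRp55 siRNA libraries, grouped by the sample labels. TopHat and the build GRCh37 (hg19) are named in the submitters' processing notes. What assigned reads to transcripts, which annotation it used and whether strand counted: not given in the sources used here. Transcript length, estimated reads and RPKM stand as text in 1 field of the files the authors deposited, so no count model was run. Of 28812 read values of genes with 1 transcript, 89.7% were whole within 0.001, and 99.98% of these were even.

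Gene values are sums of transcript RPKM. The test was that of limma 3.58.1 in R 4.3.3 (trend, robust, without a block), run on log2(RPKM + 0.5) of the 13630 genes whose mean reached 0.5 RPKM, with p-values adjusted over all of them by Benjamini and Hochberg. On this scale changes of low genes are understated. The median tested gene moved by 0.11 as deposited, against 0.01 with median-of-ratios scaling, so log2 fold changes are relative to it, while the adjusted p-values belong to the unshifted change. Single genes were also tested by exact two-sided permutation of the 10 values. Transcript usage was tested with limma's diffSplice (transcripts of at least 0.5 RPKM and 5% of the gene; a call needs a shift of 10 percentage points).

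The design text gives 5 independent preparations. Deviations from the group mean correlated by 0.13 to 0.41 between libraries of the same replicate number and by at most 0.12 between others, and 10 of 10 libraries correlated best with their own number, so a fit with a replicate block was the paired alternative. Other alternatives were another pseudocount, no minimum or a higher one, median-of-ratios scaling, estimated reads per M, no trend or robust option, and leaving out each library. The fit was tested on simulated data. All are of 1 clonal line, so p-values measure the spread between its preparations.

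The 8 genes and the marker lists were chosen with earlier results of these data known. Genes named beside the 8 are up to 3 called genes per list, the highest gene of a list with none, genes annotated over a member on the other strand, and the 3 genes most like each tested member. The others named in the text were chosen after their values were seen. Symbols and overlaps come from GENCODE 44, which named 95.0% of genes, coordinates of genes from the files, and promoters from RefSeq. Protein sequences were not used here, and some list genes are not reported here.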

Additional observations from a re-analysis of the deposited data

Results flagged for a closer look

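Of 38 groups of 5 libraries checked for a value far from the other 4, 4 held one. The cutoff gives about 1 in 20 for independent values from a normal distribution. These values are RPKM and percents, and the groups share libraries, so no excess over chance can be read from the count. SST was at 240 RPKM in control replicate 1, against 53.2 to 103 RPKM in the other control libraries, and the SRp55 siRNA library of that replicate was also the highest of its group at 189 RPKM. IRX2 was at 20.2 RPKM in control replicate 4, against 9.77 to 10.5 RPKM in the others. INS was at 12705 RPKM in the same library, against 4237 to 5839 RPKM. The CRYBA2 transcript ENST00000295728.2 held 24.4% of the gene's RPKM in control replicate 2, the library in which CRYBA2 was lowest at 81.4 RPKM.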

How the results depend on the processing

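The number of called genes, 684, was 2340 on estimated reads per M and 1784 with the replicate block, and ran from 259 to 1083 when 1 library was left out. Of the 5 tested members, 1 was called, against 2 with the replicate block (CRYBA2 and IRX2) and 0 to 2 when 1 library was left out. Of alternatives chosen after seeing the data, the replicate block gave 4953 called genes and 4 members with reads per M, 1566 and 4 with median-of-ratios scaling (CRYBA2, IRX2, SST and GC in both), and 1438 and 2 without the minimum (CRYBA2 and GCG). The block changed no call among the other members in the RPKM fit. The exact permutation test, whose p is unadjusted, passed for 1 member, for 2 on reads per M and for 1 to 2 with 1 library left out. The share of all genes that would pass it is not given, so these counts have no background. In limma 2986 of 13630 tested genes had an unadjusted p under 0.05. The usage test called 34 genes, or 24 to 52 with 1 library left out, and no member among them. Over 21 alternatives the log2 fold change relative to the median tested gene kept its sign for each tested member. It ran from 1.00 to 1.31 for CRYBA2, 0.29 to 0.54 for IRX2, 0.15 to 0.40 for TTR, -0.55 to -0.18 for GC and -0.60 to -0.02 for SST. The unshifted change of SST, to which its p-values belong, did not keep its sign. It was -0.225 in the main fit, 0.114 without control replicate 1 and 0.0081 without SRp55 siRNA replicate 5. ACSL1 was at -0.074 in the main fit and changed sign without the minimum (0.00061, adjusted p = 0.929, or 0.844 with the replicate block, limma). The unshifted change of a gene is the same with and without the minimum. Only the median subtracted from it differed, at 0.108 and 0.0335. CD68 ran from -0.22 to 0.029 with 1 library left out and changed sign without SRp55 siRNA replicate 4. For CD68 the cause was not tested. GCG rests on 2.0 to 44.05 reads per library and GHRL on 21.8 to 68.2, which limits their precision.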

Other observations

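Some genes of other peptide hormones were present at levels above GCG, PPY and GHRL. Of 24 such genes 8 were tested, 1 was called higher and 1 lower, with a median log2 fold change of -0.10. With the replicate block 1 was higher and 2 lower, against 9.39% and 3.70% of all tested genes. NPY, a neuropeptide of the pancreatic polypeptide family, rose from 4.01 ± 1.94 RPKM (2.02 to 6.15) in control to 10.3 ± 3.31 RPKM (8.34 to 16.1) in SRp55 siRNA libraries (SD, n = 5), and the groups did not overlap (log2 fold change 1.21, adjusted p = 0.0295 in limma). UCN3, a urocortin released by beta cells, fell from 19.7 ± 2.61 to 12.5 ± 1.86 RPKM (SD, n = 5; log2 fold change -0.74, adjusted p = 0.0223 in limma). The NPY call was lost without control replicate 2, 3 or 5 or SRp55 siRNA replicate 1, 2, 3 or 4 (0.0548 to 0.0764), and that of UCN3 without control replicate 1 or 2 or SRp55 siRNA replicate 3 (0.0536 to 0.0597). GAST, the gastrin gene, was at 44.8 ± 19.5 and 45.9 ± 17.5 RPKM and SCT, the secretin gene, at 29.7 ± 5.61 and 25.0 ± 4.59 RPKM (SD, n = 5), and neither was called. PYY, the nearest relative of PPY among them, was at 0.191 and 0.231 RPKM, under the minimum, while VIP, TAC1 and PENK were listed at 0.

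Of 11 beta cell reference genes 10 were tested, with 1 higher, 1 lower and a median log2 fold change of -0.23. With the replicate block 1 was higher and 4 were lower (UCN3, IAPP, PDX1 and NKX6-1), and at an unadjusted p under 0.05 without it 3 were higher and 4 lower. Over all tested genes the block called 9.39% higher and 3.70% lower, and 2986 of 13630 had an unadjusted p under 0.05 without it. SLC30A8, the zinc transporter of the insulin granule, rose from 77.3 ± 11.4 to 172 ± 24.6 RPKM (SD, n = 5; adjusted p = 0.0025 in limma), and UCN3 was the gene that fell. IAPP, the amylin gene, was lower in 5 of 5 pairs, at 34.9 ± 13.7 and 17.0 ± 9.52 RPKM (SD, n = 5), with an adjusted p of 0.116 in limma and 0.0104 with the replicate block.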
